A study of Mus musculus with 6 samples.

Results

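The endoplasmic reticulum (ER) is where secreted and membrane proteins are folded. The genes described here are 32 genes of its folding machinery and of the unfolded protein response, the signalling that adjusts that machinery to the load of unfolded protein. They were chosen by name, as the rows of the deposited count table whose gene symbol was on a list, and each of the 32 symbols was found once among the 45777 genes. The list was divided by role into 15 chaperones and folding enzymes, 4 sensors (including the transcription factor that the sensor IRE1 activates), 6 genes of the PERK-ATF4 arm, and 7 genes of ER-associated degradation (ERAD). The samples were anterior cingulate cortex, a region of the medial frontal lobe, from the inbred mouse strain BALB/c, measured by RNA sequencing. 3 libraries came from mice given 5 days of social defeat stress, in which a mouse is subordinated by another, and 3 from mice labelled non-stress. The labels name no genetic change and no drug in either group, and give neither age nor sex. Whether each library is a different mouse is not stated in them. The spread between libraries, and each p-value that rests on it, may therefore be technical.

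Unfolded protein in the ER is sensed by IRE1 (gene Ern1), PERK (Eif2ak3) and ATF6 (Atf6). IRE1 splices Xbp1 messenger RNA, and the XBP1 and ATF6 proteins then raise the transcription of chaperone and ERAD genes through promoter elements such as the ER stress response element (ERSE). PERK lowers protein synthesis by phosphorylating eIF2 alpha, which favours translation of ATF4, a factor that raises transcription of amino acid and stress genes. Neurons and glia make many receptors, channels and secreted proteins, and all of these pass through the ER. Counts per gene hold neither the splicing of Xbp1 nor the activity of these proteins.

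The promoter sequences are shown first, as a description of the genes. The list was drawn from genes of this response, and elements such as the ERSE are known from promoters of such genes. A high share of them is therefore no independent result. Windows of 250 bases before to 50 after the start, from RefSeq on GRCm38.p6, were found for 28 of the 32 genes and for 27025 genes in all. Hyou1, Manf, Derl1 and Atf6 had no window and were not searched. Both strands were searched for exact letters. The ERSE, read as CCAAT, then 9 bases of any kind, then CCACG, lay in the windows of 9 of the 28 genes (32.1%) and of 0.137% of all genes with a window. Those 9 were the chaperone genes Hspa5, Hsp90b1, Pdia6, Calr, Canx, Dnajc3 and Creld2 and the ERAD genes Syvn1 and Derl3. Its second form, ERSE-II, read as ATTGG, 1 base of any kind and CCACG, lay in the windows of Herpud1 and Dnajb11, against 0.0444% of all genes. The C/EBP-ATF response element (CARE), the element that ATF4 binds with C/EBP proteins, was read as TGATG, 1 base of any kind and AA. It lay in the windows of Asns, Chac1, Trib3 and Herpud1, against 4.51% of all genes. The unfolded protein response element, TGACGTGG, was in 0 of the 28 windows and in 0.714% of all. ERSE and ERSE-II end in the same CCACG letters, and no match of the other elements overlapped them in these genes. A match is a description of the letters and not of binding.

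**Figure D1:**
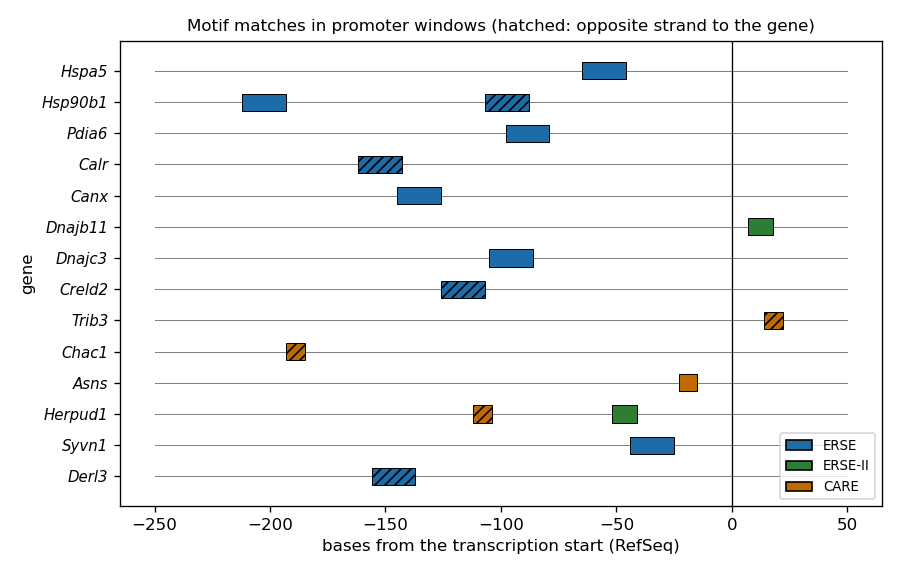
Positions of motif matches in the promoter windows of 14 listed genes, in bases from the RefSeq transcription start (0). Each bar is a match, coloured by element and hatched where it lies on the strand opposite to the gene. The ERSE matches lie between 212 and 25 bases before the start.

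Stretches that carry these elements are printed 5′ to 3′ on the strand of the gene, with the fixed letters of the element in capitals. Hspa5, whose product BiP is the main Hsp70 chaperone of the ER, is shown over the 250 bases before its start (chr2:34771840-34772089, + strand), with its ERSE beginning 65 bases before the start. Hsp90b1 has a pair of ERSE matches (chr10:86705618-86705676 and chr10:86705513-86705571, - strand), of which the second is on the opposite strand and so reads as its complement. Pdia6 (chr12:17266471-17266529, + strand) and Dnajc3 (chr14:118937807-118937865, + strand) are shown as chaperone genes with higher values in stress. Canx (chr11:50325780-50325838, - strand) and Syvn1 (chr19:6046512-6046570, + strand) carry the same element and had log2 fold changes of 0.02 and -0.12. Herpud1 (chr8:94386357-94386407, + strand) is shown for ERSE-II, and Chac1 (chr2:119351029-119351076, + strand) and Asns (chr6:7693210-7693252, - strand) for the CARE.
Hspa5: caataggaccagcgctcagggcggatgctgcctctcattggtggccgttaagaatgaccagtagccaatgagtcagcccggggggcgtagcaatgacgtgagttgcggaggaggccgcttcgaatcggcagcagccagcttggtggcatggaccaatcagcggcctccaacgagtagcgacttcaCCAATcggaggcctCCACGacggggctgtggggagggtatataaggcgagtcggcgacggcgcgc
Hsp90b1 first: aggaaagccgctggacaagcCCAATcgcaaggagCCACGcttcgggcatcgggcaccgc
Hsp90b1 second: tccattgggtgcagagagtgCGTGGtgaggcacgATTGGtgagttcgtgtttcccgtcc
Pdia6: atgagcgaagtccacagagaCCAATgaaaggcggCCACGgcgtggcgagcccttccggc
Dnajc3: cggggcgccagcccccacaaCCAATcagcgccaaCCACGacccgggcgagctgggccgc
Canx: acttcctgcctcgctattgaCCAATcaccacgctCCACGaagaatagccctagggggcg
Syvn1: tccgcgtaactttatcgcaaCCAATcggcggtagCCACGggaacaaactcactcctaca
Herpud1: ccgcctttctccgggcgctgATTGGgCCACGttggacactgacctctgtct
Chac1: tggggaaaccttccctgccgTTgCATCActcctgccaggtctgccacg
Asns: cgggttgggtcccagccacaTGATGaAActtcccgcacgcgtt

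The libraries held 41623899 to 47212982 counts each, and the 6 of them did not divide by group alone. On the first principal component of 19227 tested genes (34.5% of the variance), non-stress 1 lay at -11.7, near the stress libraries (-20.4 to -14.9), and non-stress 2 and 3 lay at 37.4 and 27.4. The 8 markers of cortical excitatory neurons were detected in every library, with summed CPM (counts scaled to the library total) of 1944 to 2095 in non-stress and 1991 to 2008 in stress. The 7 striatal markers (276 to 313 CPM in sum) and the 7 meningeal markers (9.89 to 15.0 CPM) were also detected in every library, so detection does not by itself check the tissue label. In bulk tissue, fewer cells of a type and less RNA per cell cannot be told apart.

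Most ER chaperone and folding genes had slightly higher values in stress, and the other 17 listed genes were split, with 9 above 0. Of the 15 chaperones and folding enzymes, 13 had a log2 fold change (stress over non-stress) above 0, with a median of 0.12, against a median of -0.0005 over the 19227 genes tested. Members of this group with an unadjusted p under 0.05 numbered 8, and each of the 8 was higher in stress, by 8.47% to 13.0%. These 8 were Pdia6, Pdia3, Hsp90b1, Dnajb11, Sdf2l1, Hspa5, Manf and Dnajc3. They are 53.3% of the group, and over all genes 5.8% had an unadjusted p under 0.05 in this direction. In the other 17 genes 0 were higher and 2 were lower at that threshold, against 6.27% lower over all genes. The list was chosen with earlier results of these data known, so these shares are described and not tested against each other. No listed gene passed edgeR's quasi-likelihood test after Benjamini-Hochberg adjustment over all genes tested, where the adjusted p ran from 0.344 to 0.985. That test called 0.0052% of all genes. DESeq2 and limma-voom also called 0 of the 32. DESeq2 called 1.05% of the genes to which it gave an adjusted p. At an unadjusted p under 0.05, DESeq2 had 8 listed genes higher and 1 lower, and limma-voom had 8 higher and 2 lower. Over all genes, 4.7% and 6.54% were higher by these tools. Values below are therefore described and not called as changes.

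**Figure D2:**
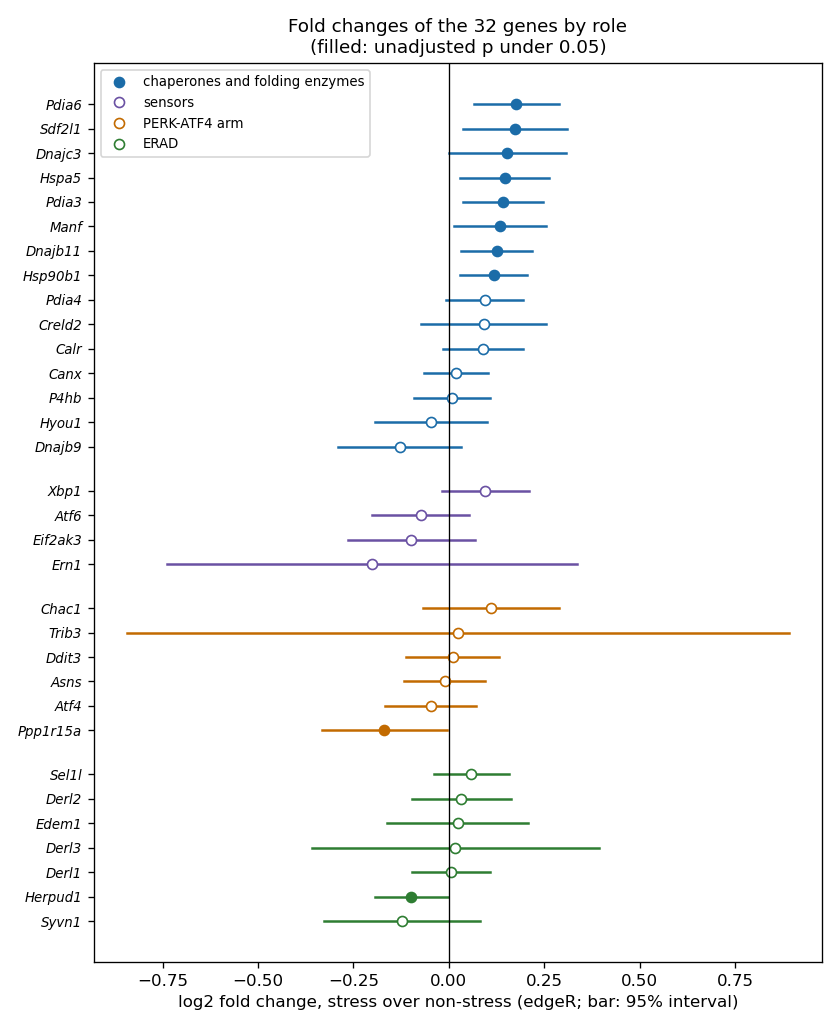
Log2 fold change of each of the 32 genes, stress over non-stress, with its 95% interval from edgeR, grouped and coloured by role. Filled points have an unadjusted p under 0.05: 8 chaperones to the right of 0, and Ppp1r15a and Herpud1 to the left.

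The chaperone count moved with the libraries in the fit. It was 4 of 15 without stress 3, 5 without stress 2 and 5 without non-stress 3, against 8 with all libraries. The share of all genes higher in these fits was 4.31%, 3.01% and 4.69%. Without non-stress 1 it was 9, where 9.84% of all genes were higher at that threshold. In that fit Pdia6, Pdia3 and Hspa5 passed after adjustment (adjusted p = 0.0222, 0.0256 and 0.0448), and 2.94% of all genes were called higher. The direction was steadier than the count, since 12 to 14 of the 15 genes lay above 0 with any 1 library left out. Among the 32 genes, 10 changed sign when a library was left out: P4hb, Hyou1, Ddit3, Trib3, Asns, Syvn1, Edem1, Derl1, Derl2 and Derl3. With a smooth trend on GC content and transcript length taken out of each library, an alternative chosen after seeing the data, 11 of the 15 were higher at an unadjusted p under 0.05, against 6.84% of all genes. In that fit Xbp1 (0.13), Chac1 (0.16) and Sel1l (0.08) were also higher at that threshold, and 0 of the other 17 genes were lower.

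**Figure D3:**
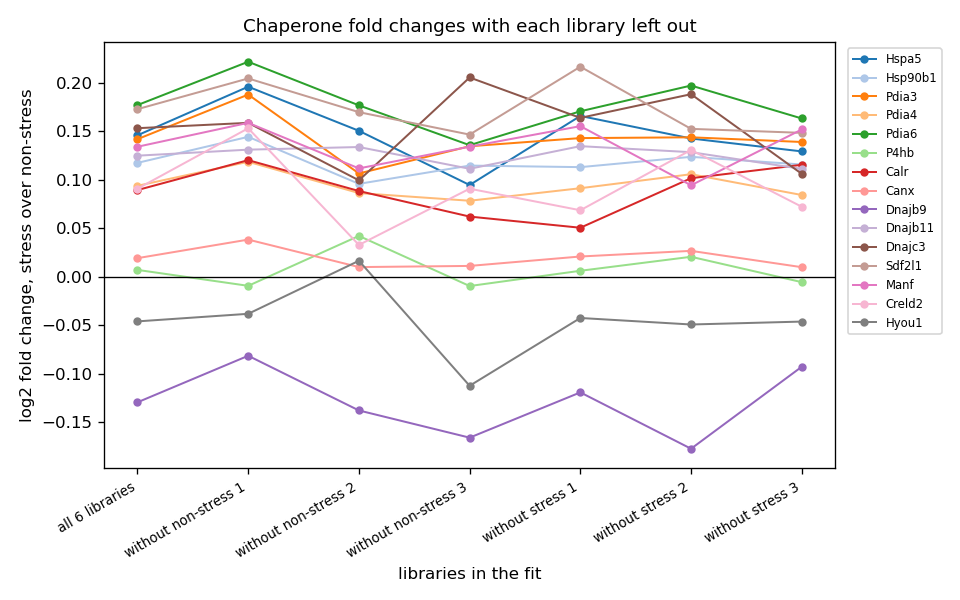
Log2 fold change (stress over non-stress) of the 15 chaperone and folding genes with all 6 libraries and with each library left out in turn. Lines join the values of the same gene. Pdia6 stays between 0.14 and 0.22, while Hyou1 and P4hb cross 0.

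Per library, the gap was mostly between non-stress 2 and 3 and the rest. Relative to the mean of the 6 libraries, the median log2 CPM of the 15 chaperones was 0.006 in non-stress 1, -0.07 in non-stress 2 and -0.07 in non-stress 3. It was 0.04, 0.03 and 0.07 in stress 1, 2 and 3. Summed over the 15 genes, non-stress libraries held 2859, 2684 and 2660 CPM. Stress libraries held 2942, 2928 and 2958 CPM. The groups did not overlap in this sum, and of the non-stress libraries the first came nearest to stress. In 8 of the 15 genes the 3 stress values lay above the 3 non-stress values, and over all genes this held for 8.43%. These were Hspa5, Hsp90b1, Pdia3, Pdia4, Pdia6, Dnajb11, Sdf2l1 and Manf.

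**Figure D4:**
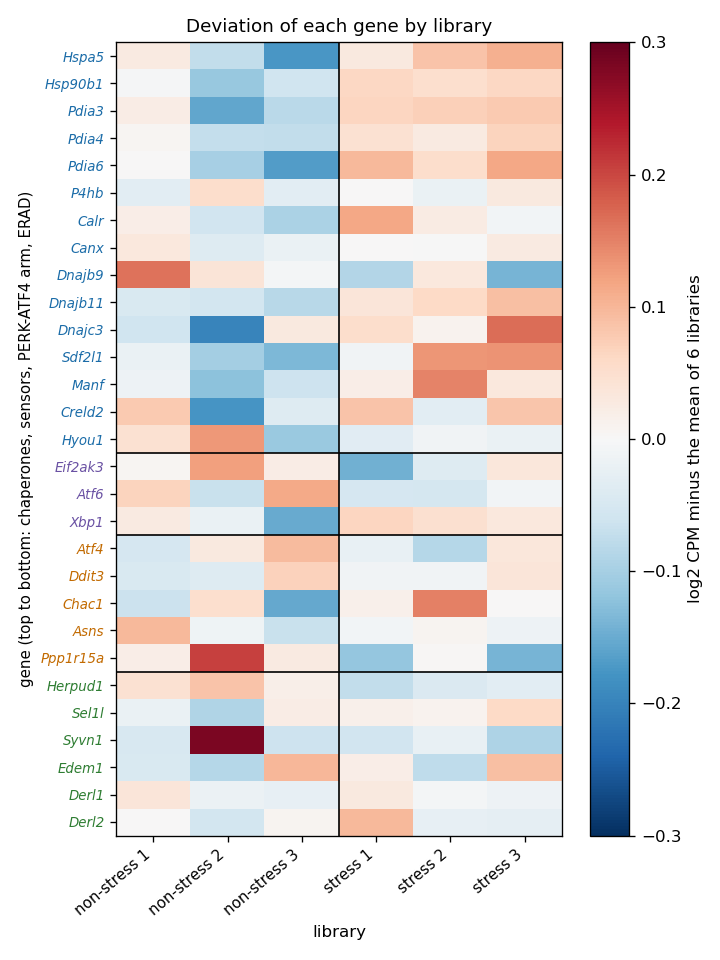
Log2 CPM of the 29 listed genes above 5 CPM in every library, minus the mean of the 6 libraries, as colours from blue (lower) to red (higher). Rows are genes by role and columns are libraries. Most chaperone rows are blue in non-stress 2 and 3 and near 0 in non-stress 1.

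Hspa5 (chromosome 2, 34772090 to 34776529, GRCm38) encodes BiP, which binds unfolded chains in the ER and also holds the sensors inactive. In order of replicate number, its CPM was 501.6, 468 and 436 in non-stress, against 501.9, 522 and 530 in stress. The groups did not overlap, but non-stress 1 and stress 1 were almost level. The log2 fold change was 0.15 (SE 0.05, unadjusted p = 0.0197, edgeR adjusted p = 0.363). Without non-stress 3 it was 0.09 and without non-stress 1 it was 0.20.

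Hsp90b1 (chromosome 10, 86690841 to 86705444) encodes GRP94, the Hsp90 chaperone of the ER. Its CPM was 404, 374 and 389 in non-stress and 423, 419 and 423 in stress, so the stress libraries lay within 4 CPM of each other and above the non-stress ones. The log2 fold change was 0.12 (SE 0.04, edgeR adjusted p = 0.351). Its exons share 415 bases with 1810014B01Rik, a pseudogene on the opposite strand, and the use of strand in counting is not given in the sources used here.

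The disulphide isomerases, which make and rearrange disulphide bonds, are represented by Pdia3, Pdia4, Pdia6 and P4hb. Pdia6 (chromosome 12, 17266589 to 17284785), which has the smallest p of the 32 genes, stood at 258, 241 and 229 CPM in non-stress and 276, 267 and 280 CPM in stress. Each stress library was above each non-stress library, and the log2 fold change was 0.18 (SE 0.05, unadjusted p = 0.00530, edgeR adjusted p = 0.344). Pdia3 (chromosome 2, 121413902 to 121438687), also called ERp57, works with calnexin and calreticulin on glycoproteins. It stood at 361, 319 and 336 CPM in non-stress and at 372, 374 and 375 CPM in stress. The Pdia3 log2 fold change was 0.14 (SE 0.05, edgeR adjusted p = 0.351), with no overlap between the groups. Pdia4 stood at 79.5 ± 2.52 and 84.8 ± 1.14 CPM (SD, n = 3), also without overlap, and its log2 fold change of 0.09 had a 95% interval from -0.01 to 0.19. P4hb, the founding isomerase of the family, stood at 124, 131 and 124 CPM in non-stress and 127, 125 and 129 CPM in stress. The P4hb groups overlapped, and the log2 fold change of 0.01 had an interval from -0.09 to 0.11. With the trend on GC content and length removed it was 0.07 (unadjusted p = 0.0495). The difference between P4hb and the other isomerases was not tested.

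The lectin chaperones calreticulin and calnexin hold glycoproteins in the ER until they are folded. Calr, the soluble lectin, stood at 466, 442 and 431 CPM in non-stress and 498, 468 and 458 CPM in stress. Non-stress 1 lay within the stress range, and the log2 fold change was 0.09 (interval -0.02 to 0.19). Canx, the membrane-bound lectin, overlapped fully, at 304 ± 7.83 and 308 ± 3.49 CPM (SD, n = 3). Its log2 fold change was 0.02 (interval -0.06 to 0.10), although its promoter carries an ERSE as that of Calr does.

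Cochaperones with a J domain direct BiP to its clients. Dnajb11 (chromosome 16, 22857845 to 22879634) stood at 94.2, 93.6 and 91.7 CPM in non-stress and 99.8, 101 and 103 CPM in stress. The spread within groups was small, with an SD of 1.28 and 1.83 CPM (n = 3), and the non-stress libraries, non-stress 1 included, lay together. The log2 fold change was 0.12 (SE 0.04, edgeR adjusted p = 0.351) and stayed between 0.11 and 0.13 with any 1 library left out. Dnajc3, also known as p58IPK and an inhibitor of PERK, stood at 53.0, 48.1 and 56.4 CPM in non-stress and 57.3, 55.6 and 62.1 CPM in stress. Non-stress 3 lay above stress 2, so the Dnajc3 groups overlapped, and the log2 fold change was 0.15 (SE 0.07, edgeR adjusted p = 0.413). Dnajb9, which encodes ERdj4, a J protein that assists ERAD and represses IRE1, had its values in the other direction. It stood at 26.6, 24.4 and 23.7 CPM in non-stress and 22.3, 24.3 and 21.6 CPM in stress, with overlap. The Dnajb9 log2 fold change was -0.13 (SE 0.07, edgeR adjusted p = 0.493). With the trend on GC content and length removed, Dnajb9 was at -0.20 (unadjusted p = 0.0131).

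Smaller soluble ER proteins followed the larger chaperones in part. Sdf2l1, which forms a complex with Dnajb11 and keeps clients from aggregating, stood at 35.1, 33.2 and 32.5 CPM in non-stress and 35.4, 39.0 and 39.1 CPM in stress. Stress 1 was close to non-stress 1, and the log2 fold change was 0.17 (SE 0.06, edgeR adjusted p = 0.360). Manf, a secreted ER protein with neurotrophic activity, stood at 55.3, 51.3 and 53.6 CPM in non-stress and 56.6, 61.9 and 57.1 CPM in stress. The Manf groups did not overlap, with stress 2 highest, and the log2 fold change was 0.13 (SE 0.05, edgeR adjusted p = 0.388). Its exons share 166 bases with the antisense gene 4930524O07Rik. Creld2, a secreted isomerase-like protein, had a log2 fold change of 0.09 (interval -0.07 to 0.26), and non-stress 1 and stress 1 were level at 33.0 and 33.2 CPM. The Creld2 value was 0.03 without non-stress 2 and 0.15 without non-stress 1. Hyou1, the large Hsp70-like exchange factor of BiP, stood at 50.7 ± 4.28 and 49.1 ± 0.393 CPM (SD, n = 3). Its log2 fold change of -0.05 turned to 0.02 without non-stress 2.

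**Figure D5:**
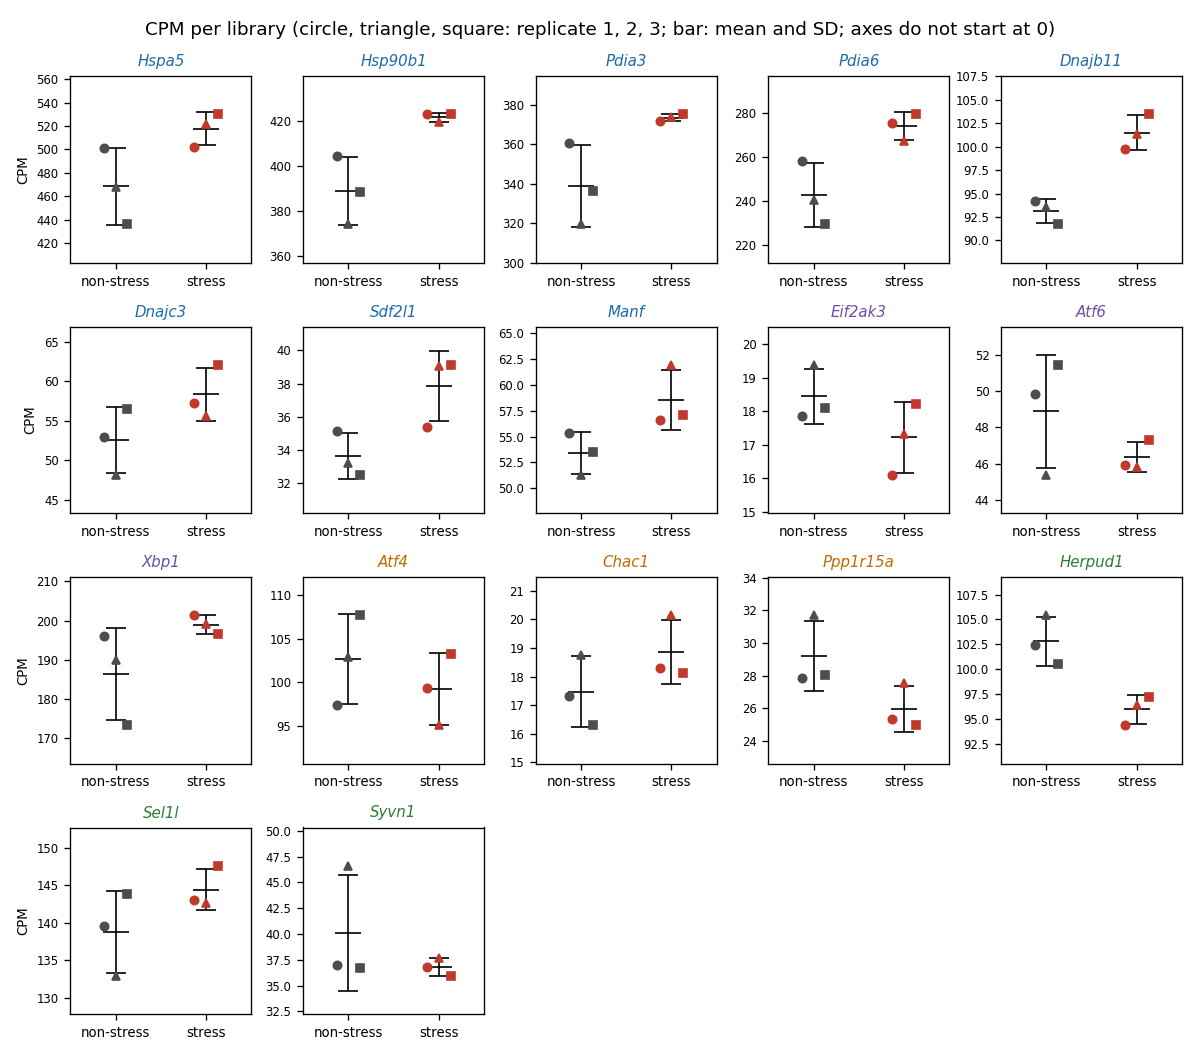
CPM in each library of the 17 listed genes described in most detail, grey for non-stress and red for stress, with the replicate number as marker shape and the mean and SD as bars. Vertical axes differ and do not start at 0. Herpud1 and Ppp1r15a are lower in each stress library than in each non-stress library.

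The sensors gave no gene with an unadjusted p under 0.05, and 3 of the 4 had log2 fold changes below 0. Xbp1 (chromosome 11, 5520641 to 5525993), the transcription factor whose messenger RNA IRE1 splices, stood at 196.1, 190 and 173 CPM in non-stress and 201, 199 and 196.7 CPM in stress. The groups did not overlap, with non-stress 1 just under stress 3, and the log2 fold change was 0.09 (SE 0.05, unadjusted p = 0.0930, edgeR adjusted p = 0.478). It was 0.04 without non-stress 3 and 0.13 without non-stress 1 (unadjusted p = 0.0264). Eif2ak3, which encodes PERK, stood at 17.9, 19.4 and 18.1 CPM in non-stress and 16.1, 17.3 and 18.2 CPM in stress, with overlap. Its log2 fold change was -0.10 (SE 0.07, edgeR adjusted p = 0.610), and its exons share 485 bases with Gm43292, a transcript on the opposite strand. Atf6 stood at 49.8, 45.4 and 51.4 CPM in non-stress and 46.0, 45.8 and 47.3 CPM in stress, also with overlap. The Atf6 log2 fold change was -0.07 (SE 0.06, edgeR adjusted p = 0.614). Ern1, which encodes IRE1, was rare, with 67, 56 and 46 counts in non-stress and 51, 56 and 37 in stress, and its interval ran from -0.74 to 0.34.

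In the PERK-ATF4 arm the median log2 fold change was -0.0009, with 3 of 6 genes above 0 and 3 below. Atf4 itself is controlled mainly by translation, which counts do not show. It stood at 97.5, 103 and 108 CPM in non-stress and 99.4, 95.1 and 103 CPM in stress, with overlap (log2 fold change -0.05, interval -0.17 to 0.07). Ddit3, which encodes the pro-apoptotic factor CHOP, was level, at 37.3 ± 1.70 and 37.5 ± 0.695 CPM (SD, n = 3). The Ddit3 log2 fold change was 0.01 (interval -0.11 to 0.13), and its exons share 68 bases with Mars on the opposite strand. Asns, asparagine synthetase, stood at 194.7 ± 11.3 and 193 ± 1.67 CPM (SD, n = 3), with a log2 fold change of -0.01 (interval -0.12 to 0.10).

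Chac1, which breaks down glutathione, stood at 17.3, 18.8 and 16.3 CPM in non-stress and 18.3, 20.1 and 18.1 CPM in stress, and non-stress 2 lay within the stress range. Its log2 fold change was 0.11 (SE 0.08, edgeR adjusted p = 0.590). Trib3, a pseudokinase induced by ATF4 and CHOP, had 15, 32 and 29 counts in non-stress and 14, 35 and 27 in stress, too few to show a difference within an interval from -0.84 to 0.89. Ppp1r15a (chromosome 7, 45522917 to 45526268) encodes GADD34, which brings the phosphatase that reverses the action of PERK. It stood at 27.9, 31.7 and 28.0 CPM in non-stress and 25.4, 27.6 and 25.0 CPM in stress. The groups did not overlap, which held in this direction for 9.43% of all genes. Its log2 fold change was -0.17 (SE 0.07, unadjusted p = 0.0433, edgeR adjusted p = 0.405), and it was -0.09 (unadjusted p = 0.164) with the trend on GC content and length removed.

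ERAD carries misfolded proteins out of the ER to the proteasome, and its 7 genes had log2 fold changes from -0.12 to 0.06. Herpud1 (chromosome 8, 94386429 to 94395371), a membrane scaffold of the ERAD complex whose promoter holds both ERSE-II and a CARE, stood at 102, 105 and 100.5 CPM in non-stress. In stress it stood at 94.3, 96.4 and 97.2 CPM, below each non-stress library. The log2 fold change was -0.10 (SE 0.04, unadjusted p = 0.0465, edgeR adjusted p = 0.409), and it was -0.07 (unadjusted p = 0.0828) with the trend on GC content and length removed. Syvn1, the ubiquitin ligase HRD1, stood at 37.0, 46.6 and 36.7 CPM in non-stress and 36.8, 37.7 and 35.9 CPM in stress. Non-stress 2 stood apart, and without it the Syvn1 log2 fold change went from -0.12 (SE 0.09, unadjusted p = 0.204) to 0.01. Its exons share 91 bases with Mrpl49 on the opposite strand.

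Sel1l, the partner that stabilises HRD1, stood at 139.6, 133 and 144 CPM in non-stress and 143, 143 and 148 CPM in stress, with overlap (log2 fold change 0.06, SE 0.04, edgeR adjusted p = 0.605). Edem1, a mannosidase-like protein that marks glycoproteins for disposal, and Derl1 and Derl2, membrane proteins of the exit channel, lay within 0.01 to 0.03 on the log2 scale. Their intervals were -0.16 to 0.21 for Edem1, -0.10 to 0.11 for Derl1 and -0.10 to 0.16 for Derl2. The Derl2 gene shares 231 exon bases with Mis12 on the opposite strand. Derl3 had only 70 to 90 counts per library, and its interval was -0.36 to 0.39.

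Levels between genes were compared as CPM per kilobase of transcript, as means of the non-stress libraries. The length was that of 1 annotated transcript per gene, that with the longest coding sequence. The order depends on this choice, which the SD between libraries does not cover. Hspa5 was divided by 3672 bases, Hsp90b1 by 2825 and Calr by 2184. Before division their non-stress means were 468, 389 and 446 CPM. Calr was highest at 204 ± 8.33 (SD, n = 3), followed by Hsp90b1 at 138 ± 5.33, Hspa5 at 128 ± 8.93, Pdia3 at 122 ± 7.52 and Pdia6 at 112 ± 6.67. The library values of Hsp90b1 and Hspa5 overlapped, as did those of Hspa5 and Pdia3 and those of Pdia3 and Pdia6. Xbp1, at 87.6 ± 5.53, was far above the sensors Atf6 (6.75 ± 0.432), Eif2ak3 (4.09 ± 0.182) and Ern1 (0.184 ± 0.0350). The ERAD genes ranged from Herpud1 at 52.7 ± 1.26 to Derl3 at 1.39 ± 0.116, and the arm of PERK and ATF4 from Asns at 96.6 ± 5.61 to Trib3 at 0.282 ± 0.0959. The chaperones with an ERSE in the window (7 genes) had log2 fold changes from 0.02 to 0.18 with a median of 0.12. The 6 without it had a range from -0.13 to 0.17 with a median of 0.11, and both ranges overlapped. Hyou1 and Manf had no window and are in neither set. Dnajb11, in the set without an ERSE, carries ERSE-II.

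The rest of the pathway was read from a list of 206 further genes, of which 200 were tested. 8 were higher and 14 lower at an unadjusted p under 0.05 (4% of them higher), their median log2 fold change was -0.02, and 0 passed edgeR's test after adjustment. Over all genes 5.8% were higher and 6.27% lower at that threshold, and 49.8% had a log2 fold change above 0. Of 41 further folding genes tested, 19 lay above 0, with 3 higher and 1 lower at that threshold. Dnajc1 (log2 fold change 0.20, edgeR adjusted p = 0.351), a J protein of the ER membrane, and Uggt2 (0.32, edgeR adjusted p = 0.374), a sensor of glycoprotein folding, were higher. Ganab, a glucosidase subunit that trims glycans for calnexin, was at -0.12 (edgeR adjusted p = 0.388), and at -0.07 (unadjusted p = 0.175) with the trend on GC content and length removed. Genes for translocation into the ER lay mostly above 0 (24 of 32, median 0.04), with 1 gene at an unadjusted p under 0.05. That gene was Sec62 (0.16, edgeR adjusted p = 0.368), followed by Srp19 (0.11) and Sec61g (0.17), both with edgeR adjusted p = 0.461. Srp19 turned to -0.016 with the trend on GC content and length removed.

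Signalling genes of the response had 2 genes higher and 3 lower of 35 at an unadjusted p under 0.05. That is 5.71% higher, near the 5.8% of all genes, and 6.27% of all genes were lower. Gtf2i, a transcription factor that binds ERSE sequences, stood at 78.9, 80.9 and 75.2 CPM in non-stress and 65.1, 68.5 and 68.0 CPM in stress. The Gtf2i groups did not overlap (log2 fold change -0.22, SE 0.05, edgeR adjusted p = 0.344), and DESeq2 called it (adjusted p = 0.0341). Ern2, the IRE1 paralogue known from mucosal epithelia, was rare, at 0.169 to 0.232 CPM in non-stress and 0.446 to 0.483 CPM in stress (log2 fold change 1.24, SE 0.33, edgeR adjusted p = 0.344). Tmbim6, an ER membrane protein that restrains IRE1, was at -0.20 (SE 0.07, edgeR adjusted p = 0.351).

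At an unadjusted p under 0.05, ATF4 targets outside the 32 had 2 genes higher and 4 lower of 43 tested. Over all genes 5.8% were higher and 6.27% lower. Of the 43, 29 lay below 0, and over all genes 49.8% lay above 0. Eif4ebp1, an inhibitor of translation initiation, was at 0.50 (edgeR adjusted p = 0.344). Pycr1, an enzyme of proline synthesis, was at -0.72, and Jdp2, an AP-1 family repressor, at -0.17 (both with edgeR adjusted p = 0.344). Further ERAD genes had 0 higher and 6 lower of 49 tested at an unadjusted p under 0.05, against 5.8% and 6.27% of all genes. Fbxo2, which recognises glycoproteins for ubiquitination in neurons, was at -0.20 (edgeR adjusted p = 0.344). Nploc4, a cofactor of the p97 ATPase, was at -0.21 and Bag6, a holdase for released clients, at -0.30 (both with edgeR adjusted p = 0.351). For Fbxo2 and Nploc4 each stress library lay below each non-stress library, and for Bag6 the groups overlapped. Bag6 was at -0.19 (unadjusted p = 0.0513) without non-stress 2 and at -0.17 (unadjusted p = 0.0498) with the trend on GC content and length removed.

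Of 12 summed marker lists, that of the pituitary was the 1 whose groups did not overlap. The summed CPM of 7 pituitary genes was 1.26 to 3.18 in non-stress and 3.79 to 14.2 in stress, and Pomc was the only 1 of the 7 detected in every library. Most of the sum in stress 1 and 2 was Gh, growth hormone, with 337, 400 and 30 counts in the stress libraries and 9, 6 and 0 in the non-stress libraries. Lhb had 0 counts in the 3 stress libraries, and Prl had 0 in the 3 non-stress libraries. The part of pituitary RNA in the chaperone values was not tested. By stress library, in order of replicate number, the pituitary sum was 13.0, 14.2 and 3.79 CPM. Sums for plasma cell genes (22.8 to 32.8 and 21.5 to 27.5 CPM), choroid plexus and ependyma (10.6 to 15.96 and 5.90 to 14.6) and oligodendrocytes (6061 to 7521 and 6667 to 7210) overlapped between the groups. The meningeal sum was 15.0, 9.89 and 10.1 CPM in non-stress and 13.4, 13.3 and 14.2 CPM in stress. Like the chaperone median, it was low in non-stress 2 and 3 and near the stress level in non-stress 1. The first principal component over all tested genes set the same libraries apart, so this pattern is not particular to these lists. The meningeal list was mixed. Col1a1 and Col1a2 had log2 fold changes of -0.48 and -0.22, and Dcn (0.48), Slc6a13 (0.42), Lum, Pdgfrl and Igf2 lay above 0. Gfap, an astrocyte marker, stood at 26.6, 5.32 and 4.74 CPM in non-stress and 13.2, 12.5 and 14.5 CPM in stress, and was also low in non-stress 2 and 3. The sum of the astrocyte list, which holds Gfap, did not follow it. That sum was 947, 988 and 950 CPM in non-stress and 936, 927 and 950 CPM in stress.

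Among single markers, 18 of the 81 did not overlap between the groups, 14 of them outside the pituitary list. Over all genes this held for 8.43% (higher) and 9.43% (lower). The marker count takes both directions, so these shares are to be added. Outside the pituitary list it was near their sum. The 5 named next, and Gfap, were chosen after their values were seen. Drd2, a dopamine receptor of striatal neurons, stood at 1.18, 0.974 and 1.10 CPM in non-stress and 0.601, 0.736 and 0.468 CPM in stress. Ccdc153, an ependymal gene, stood at 1.60, 1.21 and 1.41 CPM in non-stress and 0.937, 0.967 and 0.334 CPM in stress. Both were lower in each stress library. Sst, of somatostatin interneurons, and Neurod6, of excitatory neurons, were higher in each stress library (log2 fold changes 0.27 and 0.19), and Rgs5, of mural cells, was lower (-0.14). Each of these 5 had an unadjusted p under 0.05, and edgeR adjusted p ran from 0.344 to 0.375. Other markers on their lists went the other way, and the summed lists overlapped between the groups. Of inhibitory neurons, Gad1 (-0.11) and Lhx6 (-0.18) were lower in each stress library, while Gad2 (0.14) and Vip (0.11) lay above 0. Slc17a7, of excitatory neurons, was at -0.07, and Acta2, of mural cells, at 0.27. Drd1, of striatal neurons, was at 0.02, and Prlr, on the list with Ccdc153, at 0.15. The part of these cells in the chaperone values was not tested.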

How the data were processed

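RNA sequencing libraries of the anterior cingulate cortex, 3 per group, were grouped by GEO's sample titles. Per the labels' protocols, the SMARTer Ultra low kit for complementary DNA and TruSeq reagents were used. Per the submitters' processing notes, Trimmomatic 0.38, HISAT2 and StringTie were used with GRCm38 (mm10). How counts were made, with which annotation and with what strand setting, is not given in the sources used here. The authors deposited whole-number counts per gene, 1 column per library, with 41623899 to 47212982 counts in all, and these were used unchanged. Intervals cover the spread between libraries, and counts are not independent molecules.

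Of 45777 genes, filterByExpr kept 19227. TMM scaling and edgeR's quasi-likelihood test (edgeR 4.0.16, R 4.3.3) were applied with group as the single term, two-sided. Benjamini-Hochberg adjustment covered all genes tested (threshold 0.05). SE is the log2 fold change over the square root of F. CPM were scaled to the library total. Of 206 further pathway genes 4 were matched under another symbol.

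Within each role, and each pathway list, the 3 genes of smallest p are described, with any listed gene at an unadjusted p under 0.05. The members, the lists and this rule were chosen with earlier results of these data known. Alternatives were RLE size factors, other filters, DESeq2 1.42.0, limma-voom (limma 3.58.1), each library left out and a replicate block. Added after seeing the data was a lowess trend on GC content and transcript length (GENCODE M21; 17314 genes, 90.1%). The edgeR, DESeq2 and limma steps were run on simulated data with planted changes far larger than those of the listed genes. That run does not show how changes as small as these are found or sized. Protein sequences were not used here.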

Additional observations from a re-analysis of the deposited data

How the results depend on the processing

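With any 1 library left out, the number of listed genes passing edgeR's test after adjustment ran from 0 to 3 (3 without non-stress 1) and that over all genes from 1 to 756. Chaperones higher at an unadjusted p under 0.05 ran from 4 to 9, listed genes higher from 4 to 10, listed genes lower from 0 to 2 and other pathway genes in either direction from 13 to 38, against 8, 8, 2 and 22 with all libraries. Without non-stress 3, and likewise without stress 2, the chaperones made up all 5 listed genes that were higher. Over all genes DESeq2 called 127, limma-voom 2 and the fit with the trend on GC content and length removed 4. Removing that trend gave 14 listed genes higher and 1 lower, which was the chaperone Dnajb9, and turned Srp19 to -0.016. 1 listed gene was lower with the stricter filter of 50 counts and with DESeq2. Without non-stress 2, Syvn1 turned to 0.0051. The median log2 fold change of the chaperones moved by less than the spread between libraries under each alternative run. The causes were not tested.

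The labels do not say whether the replicate numbers pair the libraries. Deviations of same-numbered libraries correlated across genes at 0.016, -0.030 and 0.021, so no pairing was visible. With 3 libraries per group, this cannot exclude one. With the replicate block, 2 genes passed over all genes, 0 listed genes passed, 7 chaperones were higher (5.75% of all genes) and 1 listed gene was lower at an unadjusted p under 0.05.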

Other observations

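Genes outside the list whose promoter window holds the same elements were read as well. Of 14 tested such genes with an ERSE, 7 had log2 fold changes above 0 (median -0.01), with 0 higher and 3 lower at an unadjusted p under 0.05. The 3 were Xlr3b (-1.51) and Xlr3c (-1.20), near-identical X-linked genes whose reads may be split, and Alg12 (-0.29), a mannosyltransferase of glycan assembly in the ER. Xlr3a (-0.56), another Xlr3 gene, was also among the 14, so the count lower and the median lean on 1 gene family. Xlr3b stood at 2.39, 2.25 and 1.88 CPM in non-stress and 0.312, 0.437 and 1.52 CPM in stress (edgeR adjusted p = 0.345).

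Of 8 tested genes with ERSE-II, 3 were higher and 1 lower at that threshold, against 5.8% and 6.27% of all genes. Lrif1, a nuclear receptor interacting factor, stood at 15.7, 12.1 and 13.0 CPM in non-stress and 20.2, 18.5 and 18.0 CPM in stress, without overlap (log2 fold change 0.47, SE 0.10, edgeR adjusted p = 0.344). Rbm39, a splicing factor, was at 0.14 and Krtcap2, a subunit of the oligosaccharyltransferase of the ER, at 0.16 (edgeR adjusted p = 0.351 and 0.389). Nucb1, a calcium-binding Golgi protein known to restrain ATF6, was at -0.12 (edgeR adjusted p = 0.410), with each stress library below each non-stress library. These genes were named after their values were seen.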
